A study of Bos taurus
Mus musculus with 10 samples.

Results

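The genes described are the TCF/LEF transcription factor genes LEF1, TCF7, TCF7L1 and TCF7L2, the gene of their partner beta-catenin, CTNNB1, and SP5, in bovine embryonic stem cells and in the mouse feeder cells beneath them. The 6 genes were taken by symbol from the bovine table of 27590 genes, and their mouse counterparts by NCBI gene ID from the mouse table of 31349 genes. A filter on low values asked for at least 10 normalised reads in at least 5 libraries. All 6 bovine genes passed it, as did 5 of the 6 mouse genes. Mouse Sp5 was below it.

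The IWRR wells were kept for 1 day without IWR-1, and the IWR wells for the same day with 2.5 µM IWR-1, 5 wells each. IWR-1 inhibits tankyrases, the enzymes that mark AXIN for degradation, and so holds down Wnt/beta-catenin signalling. The stem cell lines bESC1, bESC2, bESC4, bESC8 and bESC11, called lines 1, 2, 4, 8 and 11 here, came from blastocysts of day 7.5 and are labelled wild type. Every well of both groups also held feeder cells, fibroblasts of CD-1 mouse fetuses at E13.5 that mitomycin C had stopped from dividing, and both groups had been grown in mTeSR1 medium with IWR-1 before the experiment. Each line gave 1 well per medium, and poly(A) RNA of the whole well was sequenced.

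In the pathway these genes belong to, a complex built on AXIN marks beta-catenin for destruction until a Wnt signal arrives. Stabilised beta-catenin enters the nucleus and binds TCF/LEF factors, which sit on DNA through an HMG box and act as repressors without it. LEF1 and TCF7 act mostly as activators with beta-catenin, whereas TCF7L1 is known from mouse embryonic stem cells mainly as a repressor that limits pluripotency genes. TCF7L2 does both. SP5 encodes a zinc finger factor of the SP family and, like AXIN2, is a common target of the pathway.

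Each table held normalised reads, and whole reads could be recovered from them, 48064953 to 64345738 per library on bovine genes and 17101894 to 35223039 on mouse genes. The mouse share of the reads recovered on mouse and bovine genes together was 26.8% ± 8.45 in IWRR wells and 30.4% ± 7.57 in IWR wells (SD, n = 5 each). It was lower in the IWRR well in 5 of 5 lines, with differences between -0.92 points in line 4 and -6.63 points in line 11. How reads that match both species were counted is not given, and their part in this share was not tested. In whole wells, fewer cells of a type and less RNA per cell cannot be told apart. Of the stem cell markers, POU5F1 stood at 18294 to 62019 normalised reads, SOX2 at 13371 to 22072 and NANOG at 1199 to 2520 across the bovine libraries. The identity of the feeders was not checked by markers, because mouse IDs other than those of the 6 genes had no names here.

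Line 4 stood apart from the other lines before any comparison of media. Of 19 tested fibroblast markers, 16 were highest in line 4 in both media and 0 lowest, against 19.1% and 18.4% of all tested bovine genes. The summed level of that list in line 4 was 339081 normalised reads in the IWRR well and 299155 in the IWR well, against 70380 to 187081 in the other IWRR wells and 68228 to 160100 in the other IWR wells. The primitive streak gene TBXT had 171 and 76.2 normalised reads in the IWRR and IWR wells of line 4, and 0 to 2.96 in the other wells. The list of mesendoderm markers it belongs to was mixed, with 5 of 10 tested members highest and 1 lowest in line 4 in both media. GSC, another gene of the streak, had 5.77 and 1.19 normalised reads in the IWRR and IWR wells of line 4, against 31.5 to 450 in the other wells. The mouse share was also highest in line 4, at 41.4% in the IWRR well and 42.3% in the IWR well. What part these features have in the values below was not tested, and values of the 6 genes that rest on line 4 are given with and without it.

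TCF7 was the 1 of the 6 bovine genes whose change passed the test. In lines 1, 2, 4, 8 and 11, in that order here and below, TCF7 had 681, 736, 1971, 853 and 1129 normalised reads in IWRR wells, against 497, 538, 867, 571 and 851 in IWR wells. Every IWRR well was above the IWR well of its own line, although the groups overlapped. TCF7 averaged 1074 ± 530 normalised reads without IWR-1 and 665 ± 179 with it (SD, n = 5 each). Its log2 fold change was 0.61 ± 0.11 SE (95% interval 0.37 to 0.86, limma adjusted p = 0.0326), in a fit that compared the wells of each line. The call means that the change exceeded its spread between lines at a Benjamini-Hochberg adjusted p under 0.05 over all 18506 tested bovine genes, of which 0.951% were called in either direction, 0.886% upward and 0.0648% downward.

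The change in TCF7 was seen in each line, on 491 to 1708 recovered reads per well. The fold within a line was 1.37, 1.37, 2.27, 1.49 and 1.33, and the 95% counting interval of each of these 5 folds lay above 1, the lowest bound being 1.21. These intervals, exact binomial ones, cover counting error at most. Reads are not independent molecules, so the intervals may be too narrow. Line 4 gave the largest of the 5 changes, and without that line TCF7 was still called at 0.47 (limma adjusted p = 0.0448). The call ended without line 1, 8 or 11 (limma adjusted p = 0.109, 0.0619 and 0.103), at log2 fold changes of 0.62 to 0.67. It also ended without the block for the line, where the lines' own differences enter the error (limma adjusted p = 1.00). Adding each well's mouse share as a covariate gave 1.01 ± 0.21 SE, also not called (limma adjusted p = 1.00, unadjusted p = 0.000616). In that fit 0 of the 18506 tested bovine genes were called, so its adjusted p does not tell genes apart. The share was lower in the IWRR well in 5 of 5 lines, so this fit cannot fully separate share from medium. Its estimate is for equal shares in both wells, which line 4 came nearest to, at -0.92 points. Both limits apply to each value with this covariate below.

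**Figure D1:**
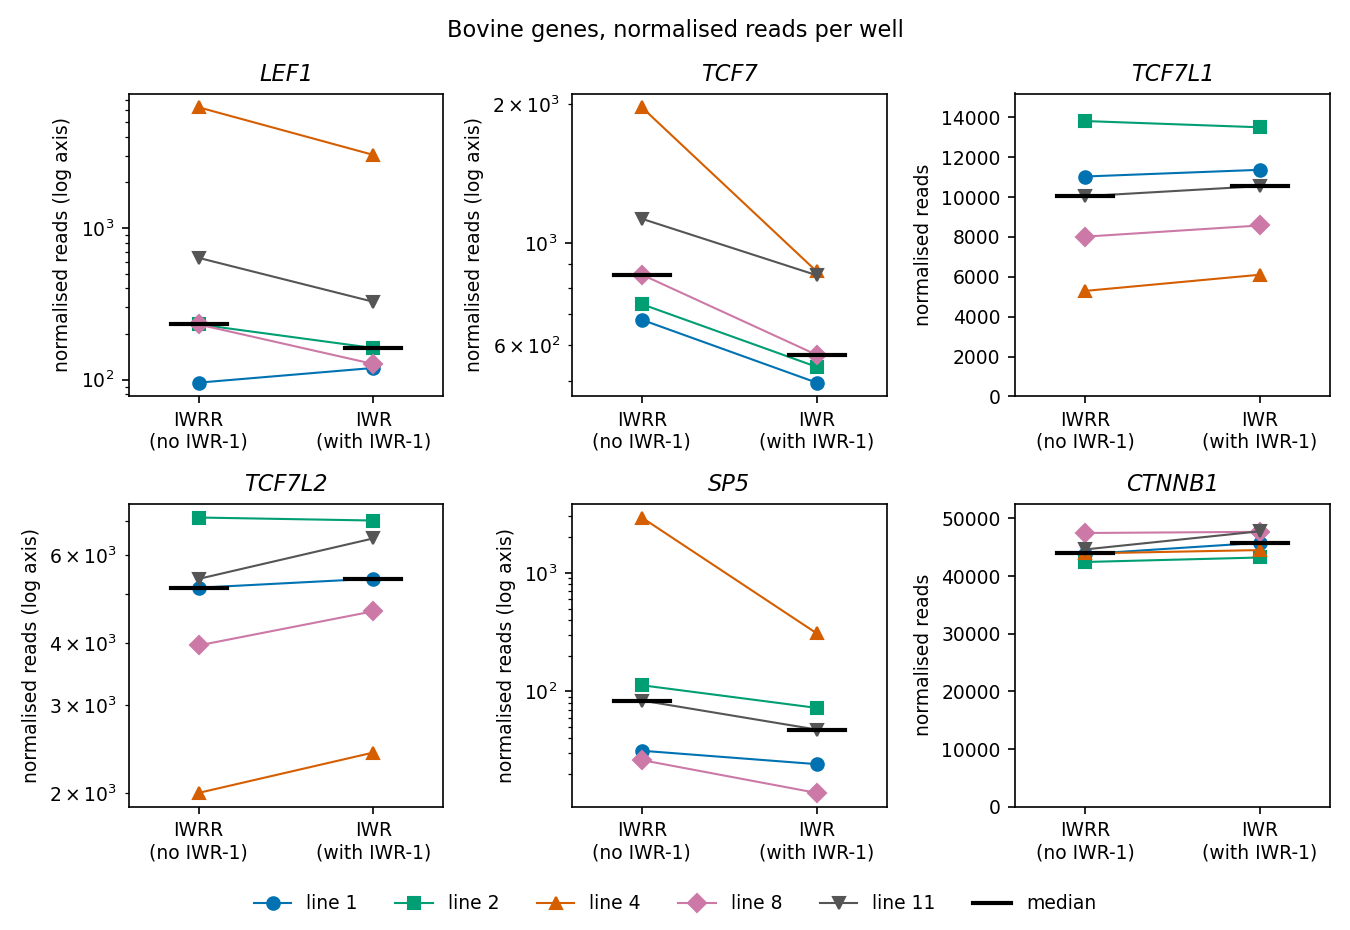
Normalised reads of the 6 bovine genes in IWRR and IWR wells, 1 point per well, with a line joining both wells of a stem cell line and a black bar at the median of 5 wells; the axis is logarithmic where it says so. TCF7 and SP5 slope down towards IWR in all 5 lines, LEF1 in 4, and line 4 is highest for LEF1, TCF7 and SP5 and lowest for TCF7L1 and TCF7L2 in both media.

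LEF1, whose product shares the DNA-binding domain and the beta-catenin binding of TCF7, was higher without IWR-1 in 4 of 5 lines but was not called. It had 95.6, 231, 6264, 231 and 636 normalised reads in IWRR wells, against 119, 162, 3038, 127 and 326 in IWR wells. The IWRR well was below the IWR well in line 1, and there the fold of 0.80 had a counting interval of 0.61 to 1.06, on 97 recovered reads in the IWRR well and 118 in the IWR well. In lines 2, 4, 8 and 11 the folds were 1.43, 2.06, 1.82 and 1.95, with counting intervals that began at 1.16 or higher.

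Over the 5 lines the log2 fold change of LEF1 was 0.61 ± 0.17 SE (95% interval 0.23 to 1.00, limma adjusted p = 0.181). Its size was thus that of TCF7, and its spread between lines was larger. LEF1 was called without line 1, at 0.84 (limma adjusted p = 0.0332), and by DESeq2 on the recovered reads, at 0.66 (adjusted p = 0.000531). The count test of edgeR gave 0.70 (adjusted p = 0.0760). With the mouse share as a covariate it was 0.37 ± 0.38 SE (limma adjusted p = 1.00, unadjusted p = 0.346). Without line 4 it stood at 0.50 (limma adjusted p = 0.491).

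SP5 had the largest fold of the 6 and the fewest reads. It had 31.5, 113, 2935, 26.3 and 83.7 normalised reads in IWRR wells, against 24.3, 72.5, 309, 13.9 and 47.6 in IWR wells. The IWRR well was higher in 5 of 5 lines, a pattern that 6.2% of all tested bovine genes showed. The fold in line 4 was 9.49 (counting interval 8.35 to 10.8). In lines 2, 8 and 11 the folds were 1.55, 1.89 and 1.76, and line 1 had the smallest. Outside line 4 a well held 15 to 108 recovered reads of SP5, and the counting intervals of lines 1 and 8 reached below 1 (0.74 to 2.30 and 0.98 to 3.80), while those of lines 2 and 11 did not (1.14 to 2.13 and 1.22 to 2.55).

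Over the lines SP5 had a log2 fold change of 1.18 ± 0.35 SE (95% interval 0.40 to 1.96, limma adjusted p = 0.210), so SP5 was not called. Without line 4 it was 0.67 (limma adjusted p = 0.347). With the mouse share as a covariate it was 2.36 ± 0.65 SE (limma adjusted p = 1.00, unadjusted p = 0.0045). By size alone, SP5 was place 35 from the top of 18506 tested genes, TCF7 place 296 and LEF1 place 300.

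TCF7L1 and TCF7L2 were lower in IWRR than in IWR wells in 4 of 5 lines each, by small amounts, and neither was called. TCF7L1 had 11034, 13816, 5293, 8016 and 10047 normalised reads in IWRR wells, against 11370, 13502, 6106, 8577 and 10550 in IWR wells. The lines kept the same order in both media, from line 4 at the bottom through lines 8, 11 and 1 to line 2 at the top. Its log2 fold change was -0.08 ± 0.05 SE (95% interval -0.20 to 0.04, limma adjusted p = 0.766), an interval that leaves out a fall by more than 0.20 on the log2 scale.

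TCF7L2 had 5156, 7127, 2002, 3952 and 5370 normalised reads in IWRR wells, against 5377, 7029, 2412, 4626 and 6474 in IWR wells. Line 2, the highest line, was again the exception, with a fold of 1.01 (counting interval 0.98 to 1.05). In lines 1, 4, 8 and 11 the folds were 0.96, 0.83, 0.85 and 0.83, each with a counting interval below 1. The log2 fold change over the 5 lines was -0.16 ± 0.06 SE (95% interval -0.30 to -0.02, limma adjusted p = 0.390; unadjusted p = 0.0247, against 10.1% of tested bovine genes with an unadjusted p under 0.05).

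The changes of the factor genes were also compared with each other within each line. The log2 change of TCF7 exceeded that of TCF7L1 in 5 of 5 lines, by 0.42 to 1.39, and that of TCF7L2 in 5 of 5 lines, by 0.43 to 1.45. The change of LEF1 exceeded that of TCF7L1 in 4 of 5 lines, by 0.69 ± 0.61 over all lines (SD, n = 5), with -0.28 in line 1. These differences compare changes, not levels, so gene length does not enter, and they were given no test.

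CTNNB1 itself differed little between the media. It had 43808, 42442, 43922, 47469 and 44620 normalised reads in IWRR wells, against 45778, 43223, 44509, 47675 and 47768 in IWR wells. The IWRR well was lower in 5 of 5 lines, a pattern that 4.92% of tested bovine genes showed, with differences between -0.43% in line 8 and -6.59% in line 11. The log2 fold change was -0.04 ± 0.06 SE (95% interval -0.18 to 0.09, limma adjusted p = 0.914). The highest well was 1.12 times the lowest among IWRR wells and 1.11 times the lowest among IWR wells, the narrowest spread of the 6 genes.

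**Figure D2:**
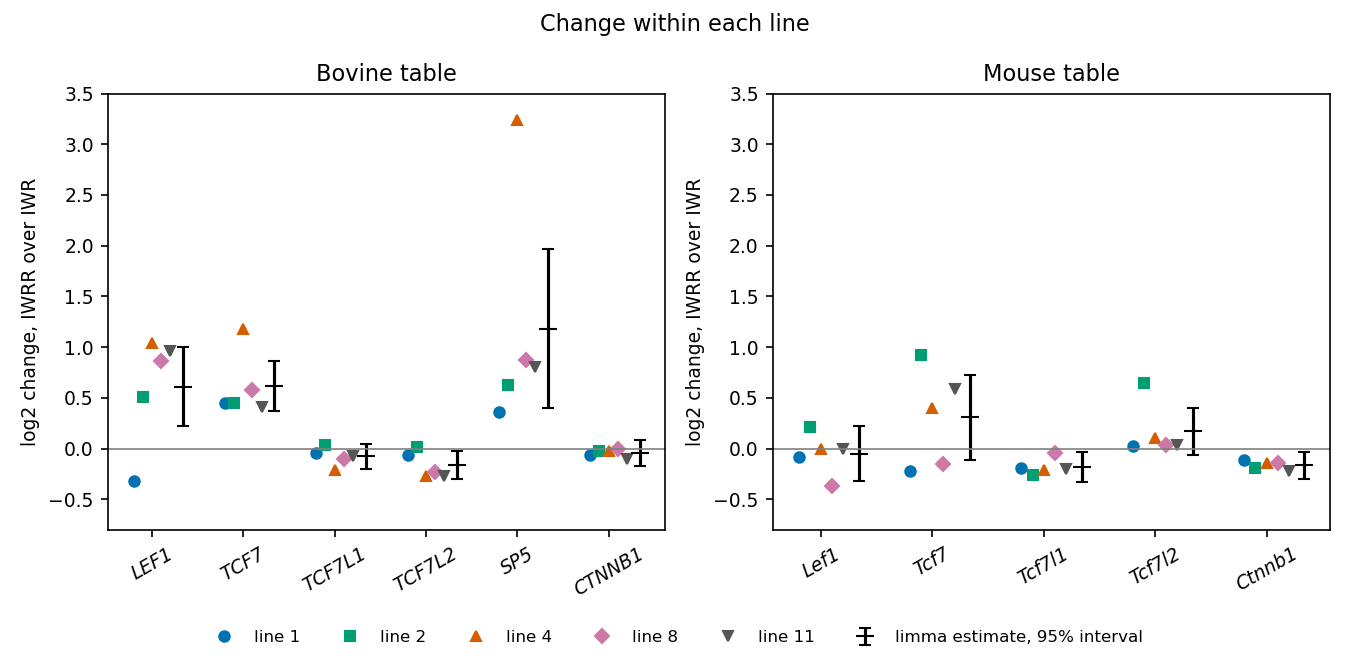
Log2 change of IWRR over IWR within each line for the bovine genes (left) and the 5 tested mouse genes (right), with the limma estimate and its 95% interval in black. SP5 in line 4 stands at 3.24, above the other 4 lines at 0.36 to 0.87, while CTNNB1 in 5 of 5 lines lies within 0.10 of 0.

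With 5 pairs, an exact two-sided sign-flip permutation test of the within-line changes cannot go below p = 0.063. The same exact test gave this smallest value for bovine TCF7, SP5 and CTNNB1 and for mouse Tcf7l1, Tcf7l2 and Ctnnb1, and an exact p = 0.125 for bovine LEF1, TCF7L1 and TCF7L2.

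Differences between lines held a larger share of the spread than the medium for each of the 6 bovine genes. The shares are not divided by degrees of freedom, and 5 lines can take up more spread than 2 media by their number alone. They do not show that a line difference was larger than the medium difference. Of the spread in log2 values, as sums of squares, differences between lines held 62.3% for TCF7, 78.5% for CTNNB1, 86.0% for SP5, 95.8% for LEF1, 97.1% for TCF7L2 and 98.4% for TCF7L1, against a median of 84.5% over all tested bovine genes. The medium took 30.8% for TCF7, 13.2% for CTNNB1 and 7.87% for SP5, and at most 2.49% for the other 3, against a median of 1.71%.

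Line 4 was at one end for 5 of the 6 genes, and in opposite directions. With and without IWR-1 it was the highest line for LEF1, TCF7 and SP5 and the lowest for TCF7L1 and TCF7L2. Of all tested bovine genes, 19.1% were highest and 18.4% lowest in line 4 in both media. In IWRR wells LEF1 was 9.84-fold above the next line and SP5 26.1-fold, and in IWR wells 9.31-fold and 4.27-fold. TCF7 was 1.75-fold above the next line without IWR-1, but with it lines 4 and 11 were close, at 867 and 851 normalised reads. CTNNB1 in line 4 lay within the range of the other lines in both media. Without line 4, LEF1 still ranged over 95.6 to 636 normalised reads in IWRR wells and 119 to 326 in IWR wells, from line 1 to line 11 in both.

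In the feeder cells no counterpart of these genes was called, against 4.19% of 15871 tested mouse genes called in either direction, 2.14% upward and 2.05% downward (limma; 2 of the 5 had an unadjusted p under 0.05, Tcf7l1 and Ctnnb1, against 16.2% of tested mouse genes; edgeR and DESeq2 also called none of the 5). Mouse Ctnnb1 had 17399, 17470, 16382, 19757 and 19102 normalised reads in IWRR wells, against 18844, 19957, 18073, 21850 and 22308 in IWR wells. Each IWRR well was below the IWR well of its line, as for 7.83% of tested mouse genes, though the groups overlapped. The folds lay between 0.86 and 0.92, all with counting intervals below 1. Its log2 fold change was -0.16 ± 0.06 SE (95% interval -0.30 to -0.03, limma adjusted p = 0.198).

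Tcf7l1, the repressor-type factor, was also lower in the feeders of 5 of 5 lines, as for 7.83% of tested mouse genes. It had 646, 628, 652, 798 and 639 normalised reads in IWRR wells, against 738, 752, 753, 822 and 734 in IWR wells. The feeders of line 8 were highest in both media and made the groups overlap, which 0.554% of tested mouse genes did not do in either direction. Its log2 fold change was -0.18 ± 0.07 SE (95% interval -0.33 to -0.03, limma adjusted p = 0.208). The fold in line 8 was 0.97, with a counting interval of 0.87 to 1.08, and the intervals of the other lines lay below 1.

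Tcf7l2 was higher in 5 of 5 lines, a pattern of 7.83% of tested mouse genes, but 4 of these changes were under 0.11 on the log2 scale. It had 349, 487, 399, 450 and 409 normalised reads in IWRR wells, against 342, 311, 372, 438 and 400 in IWR wells. The log2 fold change of 0.17 ± 0.10 SE (limma adjusted p = 0.490) was 0.051 without line 2, whose own change was 0.65.

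Tcf7 and Lef1, the genes that were higher in most lines of the stem cells, went both ways in the feeders. Tcf7 had 62.8, 111, 138, 43.6 and 73.6 normalised reads in IWRR wells, against 73.2, 58.0, 104, 48.4 and 48.8 in IWR wells, higher without IWR-1 in lines 2, 4 and 11 and lower in lines 1 and 8. Its log2 fold change was 0.31 ± 0.19 SE (95% interval -0.11 to 0.73, limma adjusted p = 0.499), an interval that holds the bovine estimate of 0.61. Lef1 had 86.1, 140, 182, 88.3 and 179 normalised reads in IWRR wells, against 91.3, 121, 183, 114 and 179 in IWR wells. Its log2 fold change was -0.05 ± 0.13 SE (95% interval -0.32 to 0.22, limma adjusted p = 0.911), an interval below the bovine estimate of 0.61. The tables were scaled separately, so levels do not compare between species. The difference in these changes between species was not tested.

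Sp5 was near the limit of counting in the feeders, with 6, 1, 8, 8 and 1 recovered reads in IWRR wells and 13, 1, 2, 1 and 8 in IWR wells. The libraries held at least 17101894 mouse reads, and no direction can be read from these counts.

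**Figure D3:**
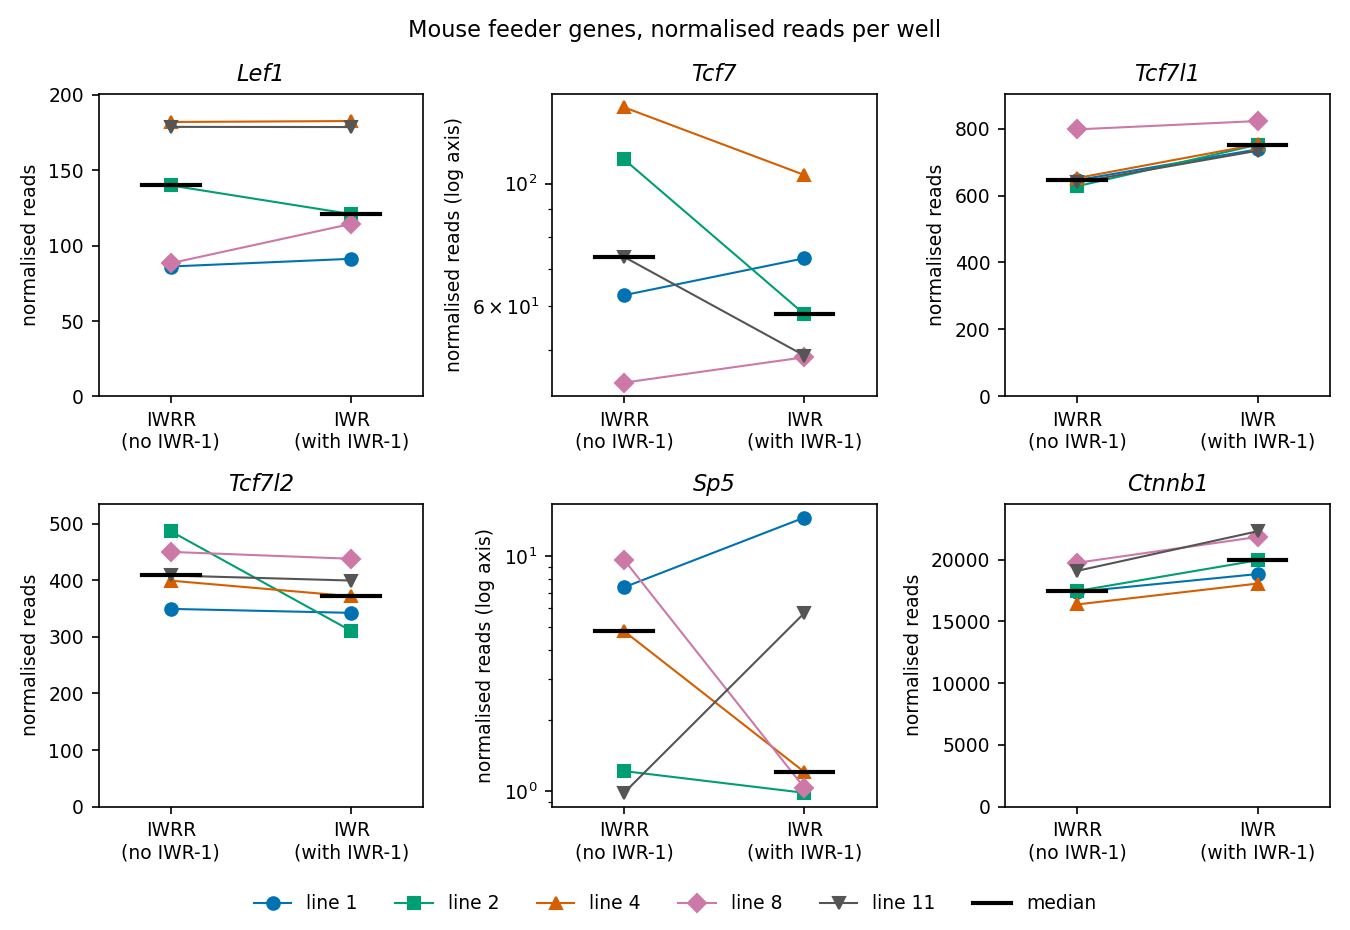
Normalised reads of the 6 mouse genes in IWRR and IWR wells, 1 point per well, joined within a line, with a black bar at the median of 5 wells; Tcf7 and Sp5 have a logarithmic axis. Ctnnb1 and Tcf7l1 slope up towards IWR in all 5 lines, while Lef1 in lines 4 and 11 stays at 179 to 183 in both media.

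The order of the lines for LEF1 was, by value alone, the same in the stem cells and in their feeders, a point noticed after the values were seen. From low to high it ran line 1, line 8, line 2, line 11, line 4 in IWRR and in IWR wells of both tables. Several neighbours in this order were too close to rank firmly. Bovine lines 8 and 2 were both at 231 normalised reads in IWRR wells, mouse lines 1 and 8 rested on 70 and 73 recovered reads in IWRR wells, and mouse lines 11 and 4 differed little in either medium. The range differed: the highest line was 65.5-fold above the lowest for bovine LEF1 in IWRR wells and 25.4-fold in IWR wells, against 2.11-fold and 2.00-fold for mouse Lef1. The handling of reads that match both species is not given in the sources, and its part in either table was not tested. Measured directly, line 4 had 5427 bovine reads of LEF1 in its IWRR well and 2553 in its IWR well, with 303 mouse reads in each. Per 100 bovine reads of LEF1 there were 5.58 to 72.2 mouse reads in IWRR wells and 11.9 to 81.0 in IWR wells, and this ratio was lowest in line 4 in both media.

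**Figure D4:**
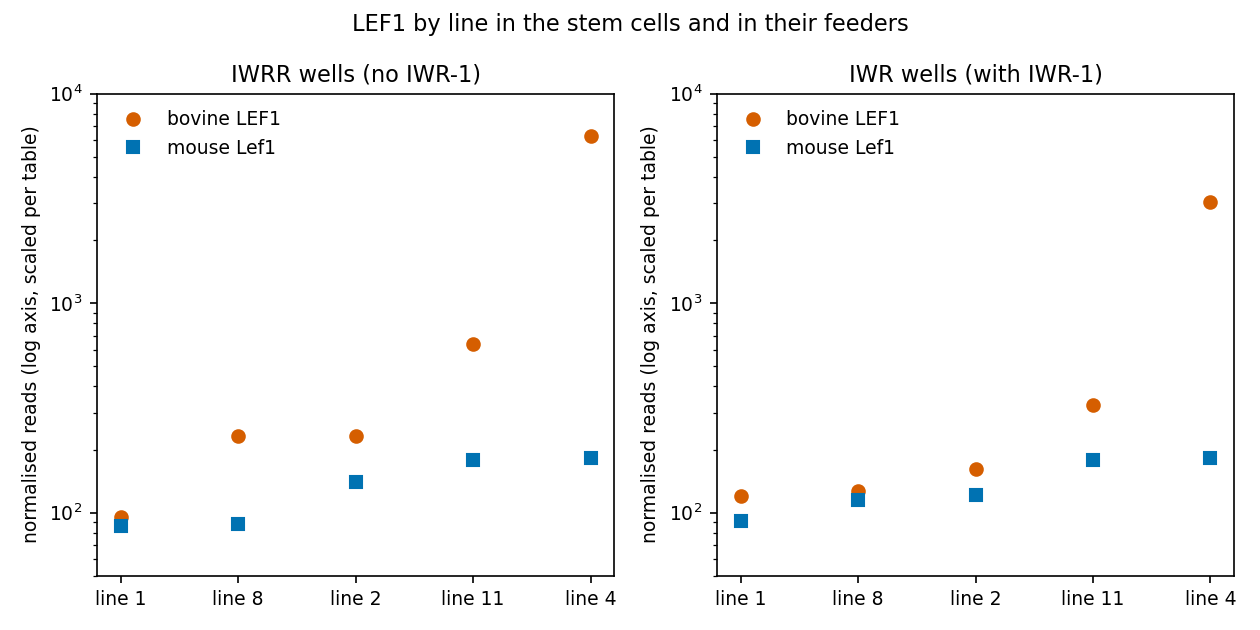
Normalised reads of bovine LEF1 and mouse Lef1 per line on a logarithmic axis, in IWRR wells (left) and IWR wells (right), 1 well per point and scaled within each table. Lines run from low to high, with several neighbours close together and line 4 at 6264 and 3038 for the bovine gene and 182 and 183 for the mouse gene.

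Other bovine genes of the pathway were read from lists chosen with earlier results of these data known. Of 37 tested Wnt target genes, 7 rose, 0 fell and 30 were not called. Over all tested bovine genes, 0.886% were called upward and 0.0648% downward. The targets had 29 positive log2 fold changes and a median of 0.20, against a median of 0.00 over all tested genes, of which 48.4% were positive. The smallest adjusted p belonged to the cyclin D1 gene CCND1, with a log2 fold change of 1.15 ± 0.12 SE (limma adjusted p = 0.00270). Next came MSX1 (1.83 ± 0.25) and MSX2 (0.94 ± 0.13), both homeobox genes, and the ligand gene BMP4 (0.72 ± 0.10). NKD1, AXIN2 and LGR5 also rose. Line 4 was the highest line in both media for 26 of the 37 targets and the lowest for 4, against 19.1% and 18.4% of all tested bovine genes. Without line 11, 1 target was called, and without the block for the line 0 were (limma; 15 by DESeq2 with the block). With no filter 3 were called, and with the mouse share as a covariate 0. That covariate gave 0.55 for CCND1, 0.86 for MSX1, 0.56 for MSX2 and 0.28 for BMP4, none of them called (limma adjusted p = 1.00 each).

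The genes that these factors work with were read next. Of 37 tested partners of TCF/LEF and beta-catenin, 0 rose and 0 fell in limma, with a median log2 fold change of -0.01. At an unadjusted p under 0.05 there were 4, and edgeR and DESeq2 called 0 each. Without line 2, limma called 1 partner. The largest differences, neither called, were in the homeobox gene HHEX (0.39 ± 0.21) and TLE2, which encodes a Groucho corepressor of TCF factors (-0.38 ± 0.11, lower in 5 of 5 lines). HHEX stood at 0.24 without line 4 and at 0.67 with the mouse share as a covariate. TLE2 had 392 ± 241 normalised reads without IWR-1 and 497 ± 320 with it (SD, n = 5 each). Of 26 genes of the destruction complex and tankyrases, 1 rose, the pathway's target AXIN2 (0.74 ± 0.13, limma adjusted p = 0.0258), which is on both lists. AXIN2 had 1685 ± 2400 normalised reads without IWR-1 and 924 ± 1277 with it (SD, n = 5 each), and line 4 was highest in both, at 5945 and 3202. The call for AXIN2 ended without line 4, 8 or 11, at log2 fold changes of 0.70, 0.72 and 0.61 (limma adjusted p = 0.101, 0.0593 and 0.116). It also ended with no filter (limma adjusted p = 0.0839), with no block for the line (1.00) and with the mouse share as a covariate, which gave 0.40 (1.00). The largest differences not called on that list were in AMER2 (0.25 ± 0.12), a membrane partner of APC, and the tankyrase gene TNKS (-0.16 ± 0.09). AMER2 stood at 0.13 without line 1, and TNKS at -0.055 without line 8.

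The list of catenins, cadherins and related genes, and that of the SP and KLF factors, the wider family of SP5, held no gene called by limma. Of 17 tested genes of the catenin and cadherin list the largest differences were CDH5 (0.42 ± 0.32) and VCL, which encodes vinculin (0.31 ± 0.10), with a list median of 0.00. CDH5 stood at 0.24 without line 4 and 0.25 without line 11. At an unadjusted limma p under 0.05 there were 3, and edgeR called 0 and DESeq2 2, one of them VCL. Of 22 tested SP and KLF genes they were KLF2 (-0.60 ± 0.30) and SP6 (0.26 ± 0.19), with a median of -0.03, 3 at an unadjusted limma p under 0.05 and 0 called by edgeR or DESeq2. With the mouse share as a covariate KLF2 stood at -0.30 and SP6 at -0.049. Markers of other cell types moved in the same comparison. Of 19 tested fibroblast markers 2 rose (TAGLN and ACTA2), and of 8 tested trophectoderm markers 4 rose (KRT8, KRT18, KRT19 and TEAD4). Of 10 tested neural markers 1 rose (PAX3), and of 11 tested stem cell markers 1 rose (NANOG, 0.33). Of those 11, 5 had a positive log2 fold change, and the list median was -0.01. FOXD3 (-0.44), DNMT3B (-0.27) and TDGF1 (-0.71) were lower in every line, none of them called. Over all tested bovine genes, 0.886% rose. Of the 14 listed trophectoderm markers, CDX2, GATA2, GATA3, ELF5, IFNT and PAG2 were below the filter, and TFAP2A stood at -0.70 ± 0.48, not called. None of these marker lists held a gene called as falling, and 0 of 10 tested mesendoderm markers were called in limma, with 2 at an unadjusted p under 0.05. Their part in the values of the TCF/LEF genes was not tested.

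**Figure D5:**
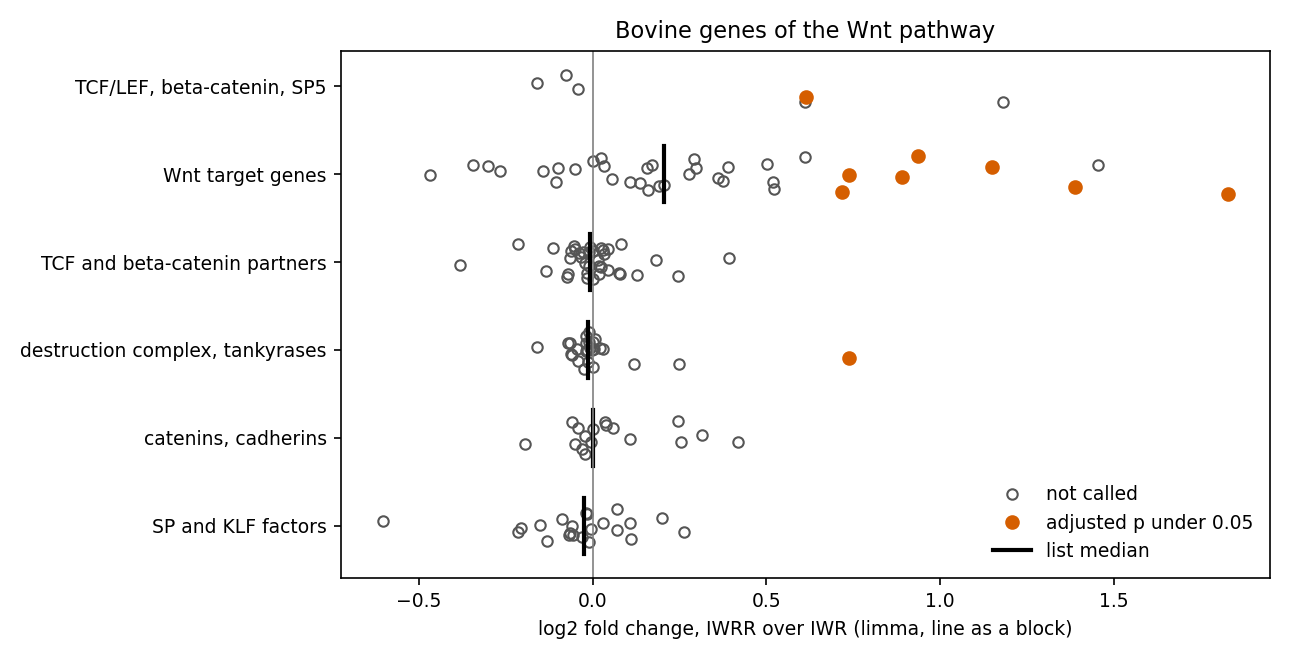
Log2 fold change of each tested bovine gene in the 6 genes (top) and in the 5 pathway lists, with called genes filled and a black bar at each list's median; AXIN2 is on 2 of the lists. TCF7 is the 1 filled point of the top row, and the Wnt targets are the list with the most, 7 of 37.

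Bovine genes with the most similar profiles were found from the root mean square difference between log2 levels, each centred on its own mean, over the 10 libraries. The points share libraries and lines, and for LEF1 and SP5 the distance turns mostly on line 4. Nearest to LEF1 were AQP3 (0.35), RUNX2 (0.45) and PTX3 (0.45), against a median of 1.96 over all named genes. Nearest to SP5 were PLAGL1 (0.80), TNC (0.83) and AQP3 (0.86), and nearest to TCF7 were PDLIM3 (0.18), METRNL (0.25) and CSRP1 (0.25). Profiles of TCF7L1 were nearest to those of CECR2, ZFP36L2 and AHCY (0.09 to 0.10), those of TCF7L2 to SALL2, ACTN1 and RHOU (0.12 to 0.14), and those of CTNNB1 to SEC61A2, NR2C1 and BRIP1 (0.04 to 0.05).

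By the 5 within-line changes instead, the nearest genes differed. TCF7 was nearest to MTARC1 (root mean square difference 0.08, log2 fold change 0.59), GIPC3 (0.09, 0.63) and MATN2 (0.13, 0.69), of which MTARC1 and MATN2 were called. Among the genes nearest to LEF1 were P3H2 (0.20) and NOTUM, which encodes a secreted Wnt inhibitor (0.23), and SP5 was nearest to APELA (0.56), MIR1584 (0.67) and MYL3 (0.68), against medians of 0.82 and 1.59 over all named genes.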

How the data were processed

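Poly(A) RNA of 10 wells, each a bovine stem cell line on mouse feeders, was sequenced from NEBNext Ultra libraries and mapped separately to ARS-UCD1.3 and GRCm39, per the labels. Among tools, featureCounts 1.5.0-p3, StringTie 1.3.3b, HISAT2 2.0.5 and fastp appear without roles, per the submitters' processing notes. The deposited values are a normalised signal for every gene. In 100% of positive values of each library this signal was a whole multiple of 1 step, within 0.01 reads, so whole reads were recovered. The scaling method is not given in the sources. Left out were 2 mouse columns that match no sample. Of 27590 bovine IDs, 24660 matched a RefSeq table of ARS-UCD2.0, which gave symbols; no coordinates or sequences are printed. The span of LEF1 there overlaps 1 other locus, labelled protein-coding. Its level is not given here, and its part in the LEF1 reads was not tested. The span of TCF7L1 overlaps a pseudogene with 6.93 to 43.8 normalised reads.

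The test was limma 3.58.1 (R 4.3.3) on log2(value + 1) with trend, the line as a block, two-sided, adjusted over all tested genes of a table. Fold changes on this scale understate those of low genes. The labels give each line 1 well per medium, which pairs the wells; deviations from group means correlated within lines at 0.617 to 0.883 (bovine) and 0.488 to 0.725 (mouse). The fits were tested on simulated data. Alternatives were no block, TMM and total count scaling, pseudocounts of 0.5 and 10, no filter and a filter of 50, edgeR 4.0.16 and DESeq2 1.42.0 on recovered reads, leaving out each line, and the mouse share as a covariate. The members, lists and tests were chosen with earlier results of these data known. Of each list, called genes are named, at most 4 by smallest adjusted p, plus the 2 largest changes not called where fewer than 2 are called; NKD1, LGR5 and the called markers are named outside that rule, after their values were seen. The 3 genes nearest in profile to a member were found, and those of the levels are named for each member and those of the changes for LEF1, TCF7 and SP5; 1 of them is not reported here.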

Additional observations from a re-analysis of the deposited data

Results flagged for a closer look

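Each value here lay farther from the nearest of the other 4 wells or lines, relative to the range, than Dixon's 95% critical value allows. Of 36 sets of 5, 9 were so marked. Chance gives about 1 in 20 for normally distributed values. Levels were taken here without a logarithm, so that rate need not hold for them. Both wells of a line share their cells, so marks in both media are not independent. In bovine LEF1, line 4 stood at 6264 normalised reads among IWRR wells, with the next at 636, and at 3038 among IWR wells, with the next at 326. In bovine SP5 it stood at 2935 among IWRR wells, with the next at 113, and at 309 among IWR wells, with the next at 72.5.

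The log2 change of SP5 in line 4 was 3.24, with the next line at 0.87, and that of TCF7 in line 4 was 1.18, with the next at 0.58. The mouse share of line 4 fell least between its wells, by 0.92 points; its part in these changes was not tested. In the feeders, Tcf7l1 under line 8 stood at 798 normalised reads among IWRR wells, with the next at 652, and at 822 among IWR wells, with the next at 753. The log2 change of mouse Tcf7l2 in the feeders of line 2 was 0.65, with the next at 0.10.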

How the results depend on the processing

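Of 165 values for the 11 tested members under the alternatives, 155 kept their direction and their side of the threshold. TCF7 lost its call with no replicate block (0.61), with total count scaling (0.59, limma adjusted p = 0.0573), with no filter (0.61, adjusted p = 0.0939) and with the mouse share covariate (1.01). Leaving out 1 line at a time gave 0.47 to 0.67 for TCF7 and 0.50 to 0.84 for LEF1, with SP5 at 0.67 to 1.39. LEF1 gained a call by DESeq2 (0.66). Mouse Lef1 changed sign without line 8 (-0.11 to 0.031 with 1 line left out), and SP6 with the mouse share covariate, to -0.049. The bovine count of 176 called genes became 0 with no replicate block (105 at an unadjusted p under 0.05), 53 with no filter, 422 by DESeq2 and 0 with the mouse share covariate (456 at an unadjusted p under 0.05), and 31 to 184 with 1 line left out. The mouse count of 665 became 0 with no block (584 at an unadjusted p under 0.05), 329 with no filter and 0 with the covariate (687 at an unadjusted p under 0.05), and 269 to 936 with 1 line left out. The cause of these shifts was not tested. SP5, at 13.9 to 113 normalised reads outside line 4, is the bovine member most limited by depth. P-values rest on 1 well per line and medium.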
